A study of Mus musculus with 12 samples.

Results

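The genes of 5 families of pre-mRNA splicing factors were followed through radiation in a pair of mouse tumour cell lines. The members were all genes whose symbol begins with Srsf and a number, Hnrnp, Sf3a or Sf3b and a number, U2af, or Rbm and a number. Pseudogene names were left out. The choice used symbols alone and no measured values, though earlier results of these data were known when it was made. This gave 83 members of 57180 genes in the table: 40 RBM, 20 hnRNP, 11 SR, 9 SF3 and 3 U2AF genes. Of these, 76 had enough counts to be tested, among 14362 genes tested in all.

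RNA was sequenced from cultured MB49 cells, a mouse bladder cancer line, and KPC cells, a mouse pancreatic ductal adenocarcinoma line, each labelled WT and grown in DMEM. Each line had 3 control libraries and 3 libraries given 8 Gy of radiation, and the irradiated cells were collected after 48 h. How long the controls were grown is not stated, and an effect of culture time and one of dose cannot be told apart. The design text speaks of senescent cells as well, while each library's label gives only control or 8 Gy, and no label states whether replicate libraries were grown as separate cultures. The p-values therefore measure only the spread between these libraries, which may be technical.

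Splicing removes introns from pre-mRNA in a particle, the spliceosome, that is built on each intron. SR proteins bind exons through RNA recognition motifs and draw the machinery to nearby splice sites with a tail rich in arginine and serine. The U2AF pair reads the end of the intron, and the SF3A and SF3B complexes hold the U2 particle on the branch point. Proteins of the hnRNP families coat the transcript and often oppose SR proteins, and the RBM genes share only an RNA-binding domain and a naming scheme. The antisense genes Rbm3os and Rbm46os share only the name and were counted among the 40 RBM genes, Rbm3os also among the 34 tested. Many SR genes carry an alternative exon that sends their own mRNA to decay. The values here are counts per gene, so that isoforms of a gene cannot be told apart.

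The 12 libraries held 19006015 to 26337950 counts, and levels below are CPM (a gene's counts relative to the TMM-scaled total of its library) unless a share of all counts is named. Members took 0.946%, 1.03% and 1.10% of counts in MB49 controls and 0.619%, 0.615% and 0.718% after 8 Gy, and 0.923%, 0.986% and 0.961% in KPC controls and 0.658%, 0.679% and 0.632% after 8 Gy. In both lines the share in each irradiated library lay below that in each control library. SR genes took 0.146 to 0.174% in MB49 controls and 0.0339 to 0.0411% after 8 Gy. In KPC cells their share was 0.15 to 0.158% in controls and 0.0409 to 0.0458% after 8 Gy. A lower level in bulk RNA can come from fewer cells that express a gene or from less RNA per cell, and these cannot be told apart. At several members 1 MB49 control, replicate 3, lay away from its 2 fellows, and values without it stand beside several of the results it touched. Leukocyte markers were close to 0 in each group: Ptprc, the pan-leukocyte gene, had 1 count in the irradiated MB49 libraries and 0 in the other groups. The uroplakin genes Upk1a, Upk1b, Upk2 and Upk3a, which define urothelium, had at most 21 counts in a group. Other urothelial genes listed were not all so low. Gata3 stood at 14.2 CPM in MB49 controls and 3.87 CPM after 8 Gy, and at 16.3 and 14.6 CPM in KPC cells. Pparg stood at 0.0723 and 0.0161 CPM in MB49 cells and at 11.2 and 26.2 CPM in KPC cells. Krt5 stood at 0.135 and 0.813 CPM in MB49 cells, with 0 counts in KPC cells. The epithelial gene Epcam had at most 1.24 CPM, and Krt19, a keratin of ducts, stood at 3.85 CPM in MB49 controls and 80.7 CPM in KPC controls. The keratin gene Krt8 stood at 1200 CPM in MB49 controls and 1510 CPM after 8 Gy, and at 363 and 1820 CPM in KPC cells, and Krt18 at 1310 and 1730 CPM and at 355 and 1120 CPM. The epithelial cadherin gene Cdh1 stood at 0.945 and 0.0664 CPM in MB49 cells and at 39 and 143 CPM in KPC cells. The 6 mesenchymal genes listed did not all lie the same way: Vim stood at 3200 CPM in MB49 controls and 11400 CPM after 8 Gy and at 669 and 8770 CPM in KPC cells, while Fn1 stood at 1190 and 448 CPM and at 8580 and 4950 CPM. Zeb1 stood at 48.6 and 32.1 CPM in MB49 cells and 22.5 and 14.5 CPM in KPC cells, and Zeb2 at 32.9 and 14 CPM and at 26.5 and 16.2 CPM. Snai2 stood at 90.4 and 6.7 CPM in MB49 cells with 0 counts in KPC cells, and Cdh2 had at most 0.903 CPM in a group. The part of such wider shifts in the results below was not tested.

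**Figure D1:**
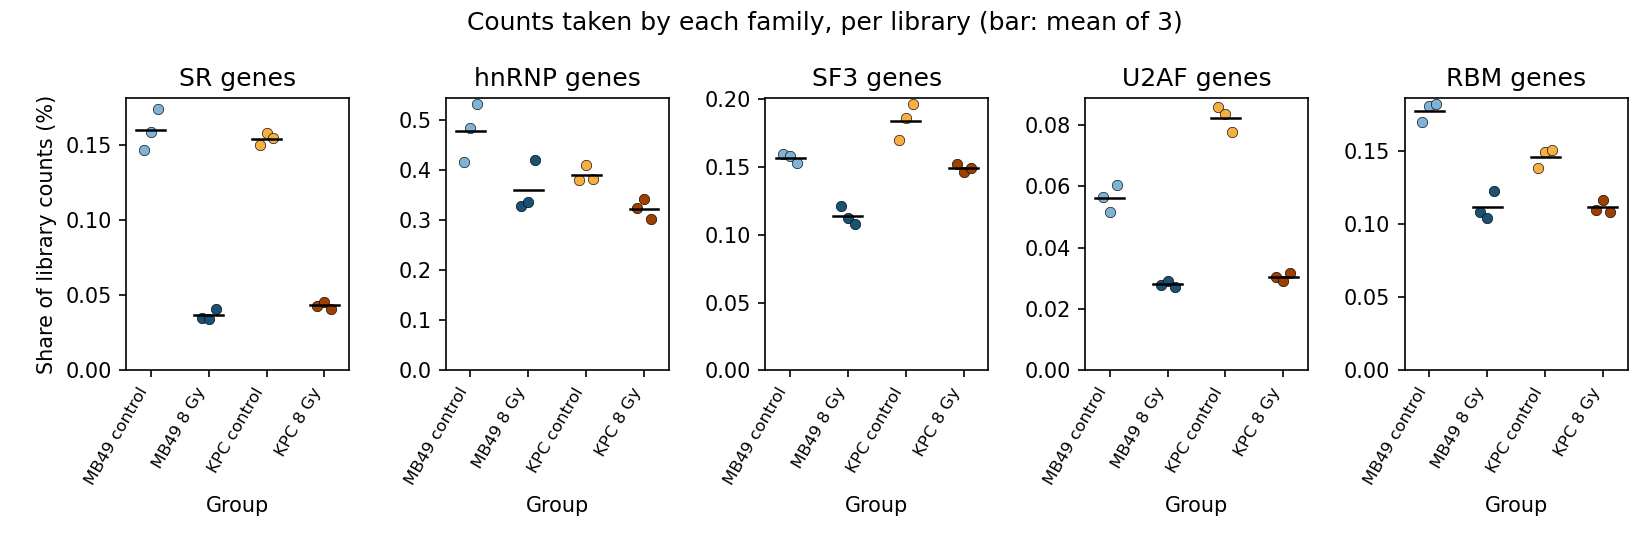
Share of all library counts (percent, linear axes from 0 with a scale of its own per family) taken by the SR, hnRNP, SF3, U2AF and RBM genes in each of the 12 libraries. Points are libraries and bars are means of 3. The SR share of each irradiated library (0.0339 to 0.0458%) lies below that of each control library (0.146 to 0.174%).

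The SR genes had the lowest median change of the 5 families. Of 10 SR genes tested, 8 fell and 0 rose in each line by edgeR's quasi-likelihood test (adjusted p under 0.05 over all genes tested), with a median log2 fold change of -2.22 in MB49 cells and -2.01 in KPC cells. The median over all genes tested was 0.04 and -0.01. The genes called lower were 31.6% of all genes tested in MB49 cells and 32.0% in KPC cells. The same 8 genes, Srsf1, Srsf2, Srsf3, Srsf5, Srsf6, Srsf7, Srsf9 and Srsf10, were called lower in both lines, and each kept its call under each of the 13 alternative settings. In 7 of them in MB49 cells and 8 in KPC cells the fall was at least 2-fold, a size of fall that 17.4% and 17.5% of all genes tested reached.

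Srsf1, the founding member of the family and a known driver of cell growth when in excess, stood at 139.6, 158 and 163 CPM in the 3 MB49 controls and at 15.1, 13.7 and 23.4 CPM after 8 Gy. Each irradiated library lay far under the lowest control, a log2 fold change of -3.14 ± 0.19 (SE, adjusted p = 2.04e-10). In KPC cells the controls stood at 72.8, 73.5 and 66.2 CPM and the irradiated libraries at 15.4, 19.8 and 12.8 CPM, a log2 fold change of -2.14 ± 0.18 (adjusted p = 2.14e-08). The controls of the lines differed and the irradiated libraries overlapped, with means of 17.4 ± 5.23 and 16 ± 3.52 CPM (SD, n = 3). Srsf3, the smallest SR protein, which also takes part in mRNA export, was at 309, 336 and 349.6 CPM in MB49 controls and 48.3, 51.5 and 61.6 CPM after 8 Gy. Its log2 fold change was -2.62 ± 0.13 in MB49 cells (adjusted p = 1.45e-11). In KPC cells Srsf3 went from 323, 307 and 319.9 to 71.8, 80.0 and 64.7 CPM, a log2 fold change of -2.13 ± 0.13 (adjusted p = 1.75e-10). The controls of the lines overlapped at this gene, unlike at Srsf1.

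Srsf2, the SC35 antigen that marks nuclear speckles, was at 157, 144 and 240.5 CPM in MB49 controls, of which replicate 3 was the highest, and at 27.9, 27.8 and 32.3 CPM after 8 Gy. The groups did not overlap, and the log2 fold change was -2.62 ± 0.17 (adjusted p = 4.95e-10). In KPC cells Srsf2 went from 182, 190.0 and 156 to 39.8, 39.9 and 38.4 CPM (log2 fold change of -2.16 ± 0.17, adjusted p = 5.13e-09). Srsf6 was at 155, 145 and 158 CPM in MB49 controls and 20.7, 18.6 and 22.0 CPM after 8 Gy, the second largest fall of the family there (-2.90 ± 0.12, adjusted p = 1.37e-12). In KPC cells its controls were at 151, 138 and 142 CPM and its irradiated libraries at 36.4, 34.5 and 32.1 CPM (-2.06 ± 0.11, adjusted p = 5.77e-11). Srsf7, an SR protein with a zinc knuckle beside its RNA recognition motif, went from 174, 176 and 207 to 27.0, 29.9 and 31.0 CPM in MB49 cells and from 183, 174 and 168 to 45.3, 44.1 and 40.7 CPM in KPC cells. The log2 fold changes were -2.67 ± 0.12 and -2.01 ± 0.11 (adjusted p = 4.23e-12 and 1.11e-10). No irradiated library overlapped a control at Srsf6 or Srsf7.

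The remaining SR genes that fell did so by less in at least 1 line. Srsf10, a splicing repressor in its dephosphorylated form, fell by 1.82 ± 0.19 in MB49 cells, from 39.9 ± 2.87 to 11.3 ± 3 CPM, and in KPC cells (-2.01 ± 0.20), from 33.3 ± 4.90 to 8.23 ± 2.08 CPM (adjusted p = 2.60e-07 and 1.08e-07). Srsf5 fell by 1.38 ± 0.14 and 1.85 ± 0.14 (adjusted p = 1.38e-07 and 4.77e-09). Srsf9 had the smallest fall in MB49 cells (-0.74 ± 0.12) and fell by 1.39 ± 0.12 in KPC cells (adjusted p = 2.20e-05 and 1.54e-08). In KPC controls Srsf9 stood at 125, 115 and 107 CPM, above each MB49 control (64.0, 59.8 and 75.5 CPM), while after 8 Gy the lines were closer, at 43.9, 43.6 and 45.1 CPM in KPC cells and 40.6, 41.4 and 37.3 CPM in MB49 cells.

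Srsf4 and Srsf11 did not pass the test in either line. Srsf4 was at 90.1, 81.5 and 91.7 CPM in MB49 controls and 83.5, 75.5 and 64.4 CPM after 8 Gy, a difference of -0.24 ± 0.12 (adjusted p = 0.0787, 95% interval -0.50 to 0.03). KPC controls were at 104, 99.8 and 111 CPM and irradiated KPC cells at 115, 108 and 119.8 CPM, a difference of 0.12 ± 0.12 (adjusted p = 0.373). The groups of Srsf4 overlapped in both lines. Srsf11 differed by -0.20 ± 0.11 and -0.24 ± 0.11 (adjusted p = 0.134 and 0.0728), with means between 71.6 ± 5.94 CPM in irradiated MB49 cells and 117 ± 14.1 CPM in KPC controls. Its groups overlapped in KPC cells. In MB49 cells they did not, though the highest irradiated library (78.4 CPM) lay just below the lowest control (78.8 CPM). With libraries scaled by their totals only, which moved the median of all genes tested to -0.23 in MB49 cells and -0.39 in KPC cells, both genes were called lower in both lines, Srsf4 by -0.54 and -0.27 and Srsf11 by -0.49 and -0.63. With no filter on low counts both were called lower in MB49 cells (-0.36 and -0.32, adjusted p = 0.0209 and 0.0471). Srsf4 was also called lower in MB49 cells in the fit of the MB49 libraries alone (-0.32, adjusted p = 0.0436) and without irradiated replicate 1 (-0.33, adjusted p = 0.0338). Srsf11 was also called lower in KPC cells without control replicate 1 (-0.32, adjusted p = 0.0218). Srsf12 had 1 count in all 12 libraries and was not tested.

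**Figure D2:**
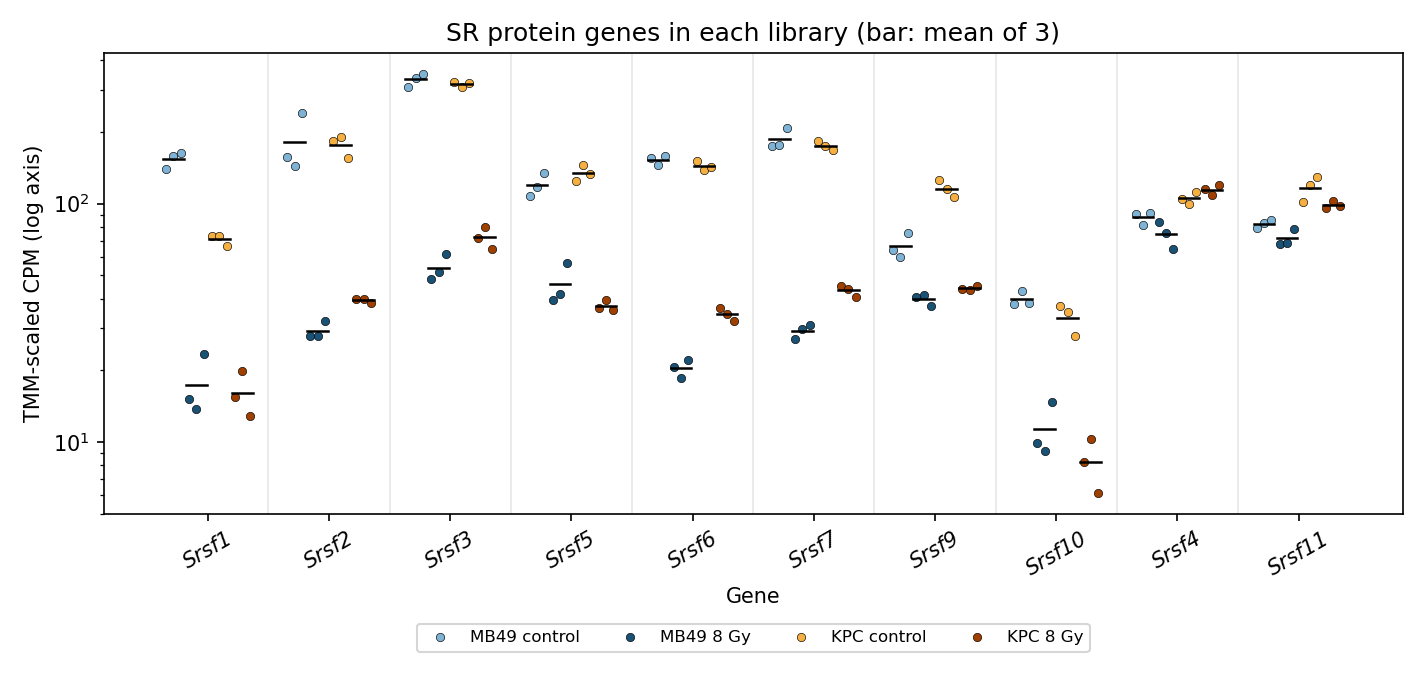
Levels of the 10 tested SR genes in each library (TMM-scaled CPM, log axis). Points are the 12 libraries by group, and bars are means of 3. For Srsf1, Srsf2, Srsf3, Srsf5, Srsf6, Srsf7, Srsf9 and Srsf10 the irradiated libraries of each line lie below its controls, and for Srsf4 they overlap in both lines.

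Since the same 8 of the 10 SR genes tested fell in both lines, the 250 bases before their annotated start sites were read. The sequences are from RefSeq on GRCm38.p6, a different build from the GRCm39 of the counts, and 69 of the 83 members, all 11 SR genes among them, had at least 1 entry, 88 promoters in all. The promoters of the 5 SR genes that fell at least 4-fold in both lines are shown, with the first of 3 entries of Srsf4, which did not pass in either. Each is written 5′ to 3′ on the strand of the gene, with capitals at each match to 6 motifs searched on both strands: the E-box CACGTG, the CCAAT box CCAAT, the GC box GGGCGG, the ETS motif CCGGAAG, the CRE TGACGTCA and the NRF1 motif. A match on the other strand reads as the reverse complement, such as CCGCCC for the GC box.
Srsf1 (chr11:88047123-88047372, plus strand): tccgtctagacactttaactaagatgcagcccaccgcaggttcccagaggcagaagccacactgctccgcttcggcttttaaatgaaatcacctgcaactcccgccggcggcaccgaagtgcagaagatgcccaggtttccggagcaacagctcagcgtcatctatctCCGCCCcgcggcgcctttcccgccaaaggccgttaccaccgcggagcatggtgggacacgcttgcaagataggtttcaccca
Srsf2 (chr11:116853095-116853344, minus strand): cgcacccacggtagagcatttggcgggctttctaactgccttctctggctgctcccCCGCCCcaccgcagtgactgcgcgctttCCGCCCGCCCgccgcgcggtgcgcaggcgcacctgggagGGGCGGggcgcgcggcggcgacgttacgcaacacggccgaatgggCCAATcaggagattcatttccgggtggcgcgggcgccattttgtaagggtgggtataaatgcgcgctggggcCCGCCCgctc
Srsf3 (chr17:29032410-29032659, plus strand): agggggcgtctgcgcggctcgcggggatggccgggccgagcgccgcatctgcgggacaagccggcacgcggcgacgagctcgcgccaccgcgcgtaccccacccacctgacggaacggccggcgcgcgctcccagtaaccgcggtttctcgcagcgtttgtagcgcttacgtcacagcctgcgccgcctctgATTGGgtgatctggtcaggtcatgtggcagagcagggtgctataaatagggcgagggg
Srsf6 (chr2:162931258-162931507, plus strand): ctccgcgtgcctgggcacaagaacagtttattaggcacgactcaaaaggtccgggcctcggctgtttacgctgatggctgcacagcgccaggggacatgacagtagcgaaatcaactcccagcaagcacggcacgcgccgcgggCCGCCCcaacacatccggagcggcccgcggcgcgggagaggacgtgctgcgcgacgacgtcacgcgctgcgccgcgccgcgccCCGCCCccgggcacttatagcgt
Srsf7 (chr17:80207306-80207555, minus strand): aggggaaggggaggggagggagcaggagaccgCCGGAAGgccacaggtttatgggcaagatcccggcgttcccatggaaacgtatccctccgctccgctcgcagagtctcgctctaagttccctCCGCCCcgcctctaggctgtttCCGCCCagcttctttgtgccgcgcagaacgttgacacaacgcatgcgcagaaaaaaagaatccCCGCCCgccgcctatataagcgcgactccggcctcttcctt
Srsf4 (chr4:131873387-131873636, plus strand): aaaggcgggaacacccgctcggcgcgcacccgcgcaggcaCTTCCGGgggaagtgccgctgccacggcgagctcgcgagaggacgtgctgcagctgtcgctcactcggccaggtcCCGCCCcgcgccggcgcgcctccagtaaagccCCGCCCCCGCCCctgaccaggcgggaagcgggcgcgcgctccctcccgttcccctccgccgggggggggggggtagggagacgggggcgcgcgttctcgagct

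The GC box stood 1 time in Srsf1, 5 times in Srsf2, 2 times in Srsf6 and 3 times each in Srsf7 and Srsf4, and no match to it stood in Srsf3. The windows of Srsf2 and Srsf3 each held 1 CCAAT box, and those of Srsf7 and Srsf4 each 1 ETS motif. Both Srsf4, which did not pass, and 4 of the 5 genes that fell thus held the GC box. Over the 14 SR promoters, some of which overlap because they start the same gene, 13 held a GC box, against 32.7% of all 32851 promoters and 56.5% of the 13240 of tested genes. The 14 include entries of Srsf4 and Srsf11, which did not pass in either line, and of Srsf12, which was not tested. The ETS motif stood in 6 of 14, against 6.91% and 13.2%, in entries of Srsf4 and Srsf11 and, among genes that fell, of Srsf5 and Srsf7. The CCAAT box stood in 3 of 14, against 33.8% and 35.5%, all of genes that fell (Srsf2, Srsf3 and Srsf10). The NRF1 motif stood in 1 of 14, that of Srsf11, against 0.782% and 1.47%. The E-box stood in 0 of 14 SR promoters and 8 of 88 member promoters, against 6.02% of all and 8.00% of tested genes. The CRE stood in 0 of 88, against 1.55% and 2.40%. Over all 88 member promoters 50 held a GC box, 39 a CCAAT box and 21 an ETS motif, and over the 36 promoters of members lower in both lines 23, 16 and 8. A match is a description of the letters and not a bound site.

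The factors that read the end of the intron also fell. U2af2, the large subunit that binds the polypyrimidine tract, went from 398, 335 and 399.8 to 261, 268 and 221 CPM in MB49 cells and from 582, 546 and 521 to 289, 264 and 306 CPM in KPC cells. The groups did not overlap in either line, and the log2 fold changes were -0.59 ± 0.12 and -0.94 ± 0.12 (adjusted p = 0.000370 and 3.44e-06). U2af1, the small subunit that reads the AG at the splice site, went from 97.6, 93.5 and 123 to 33.5, 42.5 and 44.8 CPM in MB49 cells. In KPC cells it went from 199, 174 and 149 to 52.4, 52.0 and 55.1 CPM. The log2 fold changes were -1.38 ± 0.14 and -1.71 ± 0.15 (adjusted p = 2.36e-07 and 1.85e-08), larger in fold than those of its partner in both lines, though that difference between genes was not tested. U2af1l4, a related gene with lower counts, did not pass in either line (0.16 ± 0.19 and -0.06 ± 0.19, adjusted p = 0.474 and 0.796), though with libraries scaled by their totals only it was called lower in KPC cells (-0.44, adjusted p = 0.0403).

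The SF3 genes, which encode subunits of 1 assembly, went in both directions. In MB49 cells 3 of 9 rose and 5 fell, and in KPC cells 3 rose and 6 fell. Of all genes tested, 35.3% and 31.3% were called higher in these lines and 31.6% and 32.0% lower. Sf3b2, whose product meets the intron beside the branch point, was at 297, 278 and 310.0 CPM in MB49 controls and 696, 638 and 538 CPM after 8 Gy, a rise of 1.08 ± 0.13 (adjusted p = 1.08e-06). In KPC cells it went from 235, 274 and 298 to 957, 878 and 949.7 CPM, a rise of 1.79 ± 0.13 (adjusted p = 2.92e-09). No irradiated library overlapped a control. Sf3b3, a scaffold protein of the same complex, fell from 447, 426 and 355 to 119.7, 116 and 99.9 CPM in MB49 cells (-1.87 ± 0.13), and in KPC cells from 440.3, 475 and 519 to 190.3, 179.6 and 192 CPM (-1.35 ± 0.12, adjusted p = 9.15e-10 and 5.26e-08). In CPM per kilobase of gene length, on which genes can be compared, Sf3b3 and Sf3b2 stood at 90.5 and 91.6 in MB49 controls and at 105.7 and 83.5 in KPC controls. After 8 Gy they stood at 24.7 and 193.7 in MB49 cells and at 41.4 and 288 in KPC cells.

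Sf3a2 fell by 1.64 ± 0.14 and 1.33 ± 0.14 (adjusted p = 2.32e-08 and 2.64e-07), from 108 ± 13.4 to 34.6 ± 6.72 CPM and from 174 ± 7.41 to 69.3 ± 4.61 CPM. Sf3b4 (-0.71 ± 0.13 and -0.79 ± 0.13) and Sf3a1, which also contacts the U1 particle (-0.65 ± 0.14 and -0.46 ± 0.14), fell in both lines (adjusted p between 6.18e-05 for Sf3b4 in KPC cells and 0.00668 for Sf3a1 in KPC cells). Sf3b6, which touches the branch point itself, fell in KPC cells (-0.93 ± 0.17, adjusted p = 0.000110). In MB49 cells it differed by -0.37 ± 0.17 and did not pass (adjusted p = 0.0585), but was called lower with library totals only (-0.66, adjusted p = 0.00333), without control replicate 1 (-0.45, adjusted p = 0.0477) and without irradiated replicate 3 (-0.48, adjusted p = 0.0333), among 6 such settings. Sf3b1, the subunit that clamps the branch point and is often mutated in human leukaemias, rose by 0.44 ± 0.14 in MB49 cells and 0.39 ± 0.14 in KPC cells (adjusted p = 0.00941 and 0.0193). MB49 controls were at 88.5, 107 and 83.7 CPM and irradiated libraries at 122, 107 and 149 CPM, so that the highest control nearly met the lowest irradiated library. KPC controls were at 72.3, 89.0 and 84.9 CPM and irradiated libraries at 103, 115 and 105 CPM. Both calls were lost with library totals only (0.15, adjusted p = 0.428, and 0.00, adjusted p = 0.995), and the MB49 call without irradiated replicate 3 (adjusted p = 0.0522) and the KPC call without control replicate 1 (adjusted p = 0.0837) or irradiated replicate 2 (adjusted p = 0.0695).

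A pair of SF3 genes passed the test in opposite directions. Sf3a3 fell in MB49 cells, from 34.8, 37.1 and 47.0 to 25.4, 30.5 and 34.1 CPM (-0.40 ± 0.14, adjusted p = 0.0168), and rose in KPC cells, from 30.1, 31.3 and 28.7 to 41.8, 44.3 and 38.9 CPM (0.47 ± 0.14, adjusted p = 0.00610). Sf3b5, the smallest subunit of its complex, rose in MB49 cells, from 27.4, 23.0 and 38.5 to 41.4, 47.8 and 44.3 CPM (0.59 ± 0.17, adjusted p = 0.00623), and fell in KPC cells, from 77.3, 58.0 and 53.2 to 48.8, 42.3 and 48.3 CPM (-0.44 ± 0.17, adjusted p = 0.0340). After 8 Gy the libraries of the lines overlapped at Sf3b5. These calls were among the less stable: that of Sf3a3 was lost in MB49 cells without control replicate 3 (adjusted p = 0.0894) or irradiated replicate 1 (adjusted p = 0.0929) and in KPC cells with library totals only (0.09, adjusted p = 0.607). That of Sf3b5 was lost with library totals only in MB49 cells (0.30, adjusted p = 0.121) and, in KPC cells, without control replicate 1 (-0.25, adjusted p = 0.222) or any of the irradiated libraries (adjusted p = 0.0565 to 0.119) and by DESeq2 (adjusted p = 0.0641).

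**Figure D3:**
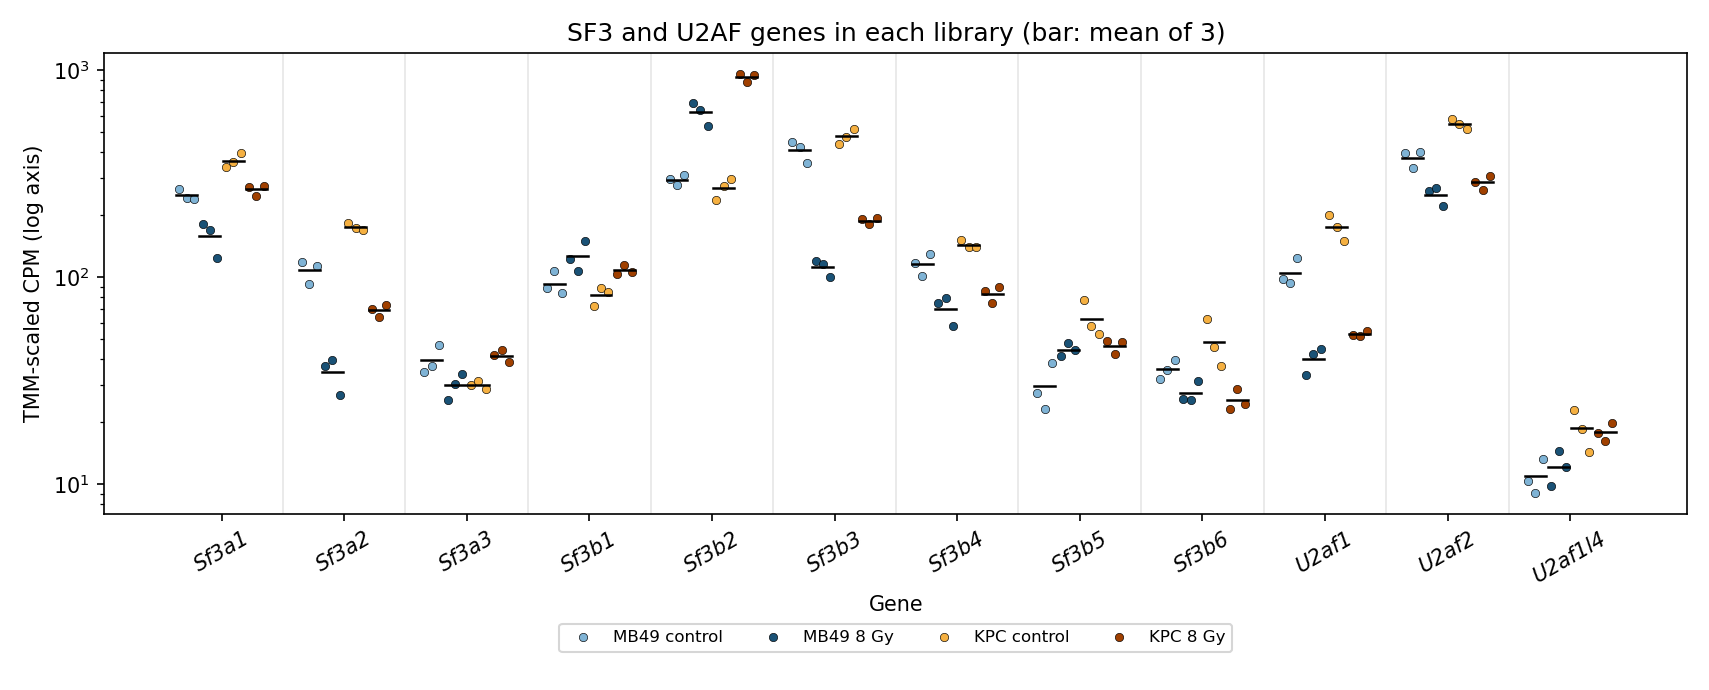
Levels of the 9 SF3 and 3 U2AF genes in each library (TMM-scaled CPM, log axis). Points are the 12 libraries by group, and bars are means of 3. Sf3b2 is higher after 8 Gy in both lines (538 to 957 CPM against 235 to 310.0 CPM), while Sf3b3, Sf3a2, U2af1 and U2af2 are lower.

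The hnRNP genes divided within the family. In MB49 cells 3 of 20 rose, 10 fell and 7 did not pass, with a median of -0.22, and in KPC cells 6 rose, 9 fell and 5 did not pass, with a median of 0.10. Over all genes tested, 35.3% were called higher and 31.6% lower in MB49 cells, and 31.3% and 32.0% in KPC cells. In KPC cells the median was thus above 0 while more members fell than rose. Hnrnpa1, a repressor that shuttles between nucleus and cytoplasm, was at 463, 509.9 and 637 CPM in MB49 controls and 707, 788 and 1002 CPM after 8 Gy (0.63 ± 0.15, adjusted p = 0.00126). In KPC cells it went from 459, 518 and 416 to 693, 724 and 671 CPM (0.59 ± 0.15, adjusted p = 0.00252). Control and irradiated libraries did not overlap in either line, but with library totals only neither rise was called (0.35, adjusted p = 0.0655, and 0.20, adjusted p = 0.275). Hnrnpa3 rose by 1.00 ± 0.23 and 0.68 ± 0.23 (adjusted p = 0.00138 and 0.0171), the latter not called with library totals only (0.30, adjusted p = 0.284), without control replicate 3 (adjusted p = 0.0732) or without irradiated replicate 2 (adjusted p = 0.0600). Hnrnpul1 rose by 0.66 ± 0.14 and 1.07 ± 0.14 (adjusted p = 0.000438 and 3.64e-06), and these calls were kept under each alternative. It was at 150.4, 174 and 212 CPM in KPC controls and 398, 353 and 376 CPM after 8 Gy, the largest rise of the family there.

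Several hnRNP genes did not pass in at least 1 line. Hnrnpc, which binds uridine tracts and guards introns against the use of cryptic exons, stood at 245, 274 and 291 CPM in MB49 controls and 279, 289.5 and 323 CPM after 8 Gy. KPC controls stood at 332, 274 and 250.4 CPM and irradiated KPC cells at 289, 307 and 269 CPM, and neither difference passed (0.14 ± 0.13 and 0.01 ± 0.13, adjusted p = 0.343 and 0.940). With library totals only, Hnrnpc was called lower in KPC cells (-0.36, adjusted p = 0.0175). Hnrnpk, a binder of cytidine-rich RNA, was called lower in MB49 cells (-0.30 ± 0.11, adjusted p = 0.0205), a call lost without control replicate 2 (adjusted p = 0.0748) or irradiated replicate 2 (adjusted p = 0.0757), and did not pass in KPC cells (0.18 ± 0.11, adjusted p = 0.158), where DESeq2 called it higher (0.23, adjusted p = 0.0109). Hnrnpa2b1 was nearly level in MB49 cells (0.02 ± 0.16, adjusted p = 0.941) and called higher in KPC cells (0.45 ± 0.16, adjusted p = 0.0239), a call lost with library totals only (0.07, adjusted p = 0.767) and without control replicate 3, irradiated replicate 1 or irradiated replicate 2 (adjusted p = 0.0866, 0.0554 and 0.0996). Hnrnpdl rose in KPC cells from 55.7, 46.9 and 40.1 to 79.7, 92.8 and 77.2 CPM (0.81 ± 0.16, adjusted p = 0.000294) and differed by -0.06 ± 0.16 in MB49 cells (adjusted p = 0.762).

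Among those that fell, Hnrnpu, a nuclear matrix protein that organises chromatin as well as splicing, went from 316, 390.1 and 427 to 97.8, 99.1 and 142 CPM in MB49 cells, the largest fall of the family there (-1.74 ± 0.16, adjusted p = 3.93e-08). Hnrnpu also fell in KPC cells (-0.94 ± 0.16, adjusted p = 4.93e-05), from 233 ± 26.5 to 122 ± 9.72 CPM. Hnrnpm (-1.51 ± 0.14 and -1.37 ± 0.14) and Hnrnpd, also known as AUF1 for its part in the decay of unstable mRNAs (-1.34 ± 0.16 and -1.51 ± 0.16), fell in both lines (adjusted p between 6.62e-08 for Hnrnpm in MB49 cells and 1.21e-06 for Hnrnpd in MB49 cells). Hnrnpab fell in MB49 cells from 196, 208 and 269.5 to 80.6, 82.2 and 85.7 CPM (-1.44 ± 0.13, adjusted p = 2.83e-08). In KPC cells the gene fell by 0.30 ± 0.12 (adjusted p = 0.0446), but this call was lost by DESeq2 (adjusted p = 0.0741) and without control replicate 1 (adjusted p = 0.118), control replicate 2 (adjusted p = 0.115), irradiated replicate 1 (adjusted p = 0.141) or irradiated replicate 2 (adjusted p = 0.120). Hnrnph3, a binder of guanosine runs, fell in KPC cells from 88.2, 81.3 and 72.6 to 13.1, 12.4 and 12.2 CPM, the largest fall of any member in that line (-2.68 ± 0.17, adjusted p = 4.49e-10). In MB49 cells it was low already in the controls, at 19.1, 20.9 and 29.3 CPM, and went to 11.1, 12.6 and 15.9 CPM (-0.80 ± 0.16, adjusted p = 0.000361). After 8 Gy the lines overlapped at this gene. The related Hnrnph1 fell by 0.72 ± 0.16 and 1.32 ± 0.16 (adjusted p = 0.000571 and 1.26e-06), Hnrnph2 did not pass in either line (-0.07 ± 0.16 and 0.28 ± 0.16, adjusted p = 0.701 and 0.15), and reads of these near-identical genes may be shared between them in counting. Hnrnpll and Hnrnpr fell in both lines, with log2 fold changes of -0.65 for Hnrnpll and -0.99 for Hnrnpr in MB49 cells and of -0.90 for Hnrnpr in KPC cells (adjusted p for Hnrnpll in KPC cells = 3.51e-06). Hnrnpl, which binds CA repeats, rose in KPC cells (0.50 ± 0.11, adjusted p = 0.000547), but not with library totals only (0.12, adjusted p = 0.251), and did not pass in MB49 cells (-0.11 ± 0.11, adjusted p = 0.353), where it was called lower with library totals only (-0.41, adjusted p = 0.000726). Hnrnpf, a relative of Hnrnph1, was called lower in MB49 cells (-0.27 ± 0.11, adjusted p = 0.0300), a call lost without control replicate 2 or 3 or irradiated replicate 1 or 2 (adjusted p = 0.0543 to 0.0957), and did not pass in KPC cells (0.23 ± 0.11, adjusted p = 0.0640), where DESeq2 called it higher (0.29, adjusted p = 0.00110). Hnrnpul2 did not pass in either line (-0.14 ± 0.12 and 0.23 ± 0.12, adjusted p = 0.306 and 0.0961), but was called lower in MB49 cells with library totals only (-0.43, adjusted p = 0.00524). It was called higher in KPC cells by DESeq2 (adjusted p = 0.0151), with DESeq2's size factors in edgeR (adjusted p = 0.0434) and with the KPC libraries fitted alone (adjusted p = 0.0480).

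Control replicate 3 of MB49 stood apart at Hnrnpa0, an hnRNP of the same subfamily as Hnrnpa1. It was at 85.7, 82.6 and 193 CPM in MB49 controls and 96.5, 116 and 110.4 CPM after 8 Gy, and the difference of -0.16 ± 0.26 did not pass (adjusted p = 0.610). Without control replicate 3 it was called higher after 8 Gy (0.35, adjusted p = 0.0295). The difference of the responses at Hnrnpa0, KPC minus MB49, did not pass with all libraries (-0.62 ± 0.37, adjusted p = 0.203) but did without that library (-1.13, adjusted p = 7.08e-05). The difference between the controls of the lines likewise did not pass with all libraries (0.17 ± 0.26, adjusted p = 0.577) and did without it (0.69, adjusted p = 0.000215). In KPC cells the gene fell by 0.78 ± 0.26 (adjusted p = 0.0208), a call lost without control replicate 1, control replicate 2 or irradiated replicate 2 (adjusted p = 0.0644, 0.0563 and 0.0794).

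**Figure D4:**
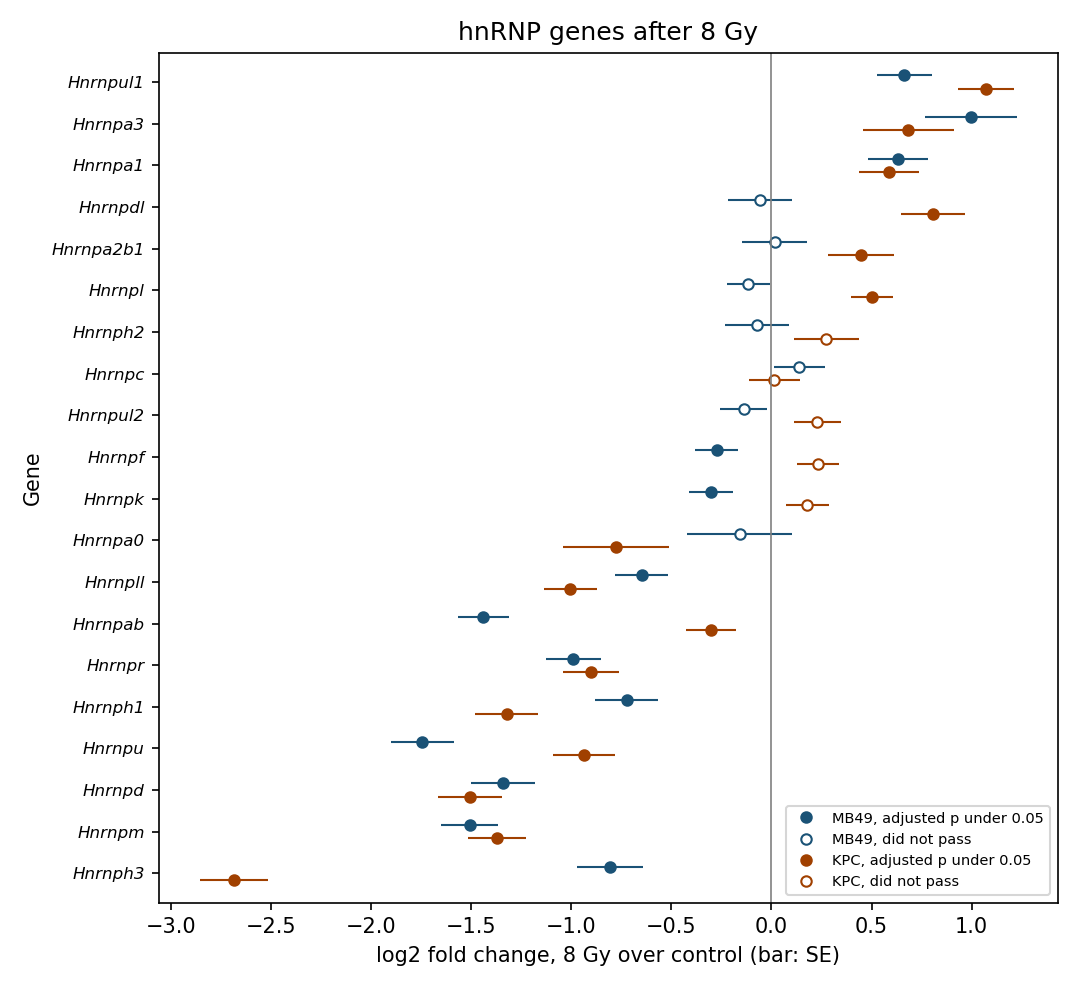
Log2 fold change, 8 Gy over control, of the 20 hnRNP genes in MB49 and KPC cells (linear axis, bars are SE). Filled points passed an adjusted p under 0.05 and open points did not. Hnrnph3 lies at -2.68 in KPC cells and -0.80 in MB49 cells, and Hnrnpul1 and Hnrnpa3 lie above 0 in both.

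The RBM genes went in both directions, with 7 of 34 higher, 17 lower and 10 not called in MB49 cells. In KPC cells 11 were higher, 12 lower and 11 not called. The medians were -0.36 and -0.05. Among all genes tested, 35.3% were called higher and 31.6% lower in MB49 cells, and 31.3% and 32.0% in KPC cells. The RBM counts in KPC cells were thus near the shares of all genes. Rbm19, which acts in the making of ribosomal RNA rather than in splicing, had the largest fall: from 94.5, 81.0 and 98.7 to 11.6, 11.8 and 10.2 CPM in MB49 cells (-3.03 ± 0.14, adjusted p = 8.76e-12) and from 71.9, 93.2 and 92.6 to 17.7, 14.9 and 16.8 CPM in KPC cells (-2.39 ± 0.14, adjusted p = 1.32e-10). Rbm15b, an adaptor of the complex that writes N6-methyladenosine on mRNA, fell by 2.55 ± 0.13 and 1.88 ± 0.13 (adjusted p = 3.97e-11 and 1.50e-09), from 109 ± 7.90 to 18.6 ± 3.06 CPM and from 99.4 ± 6.84 to 27.0 ± 2.09 CPM. Its paralog Rbm15, an adaptor of the same complex, took another course. In KPC cells Rbm15 went from 7.78, 8.79 and 9.64 to 51.1, 48.1 and 52.1 CPM, the largest rise of any member in that line (2.53 ± 0.13, adjusted p = 2.04e-11). In MB49 cells it stood at 24.8, 23.2 and 20.5 CPM in controls and 24.8, 25.9 and 26.4 CPM after 8 Gy, and the difference did not pass (0.17 ± 0.12, adjusted p = 0.215).

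Rbm4, Rbm5 and Rbm6, whose products are known to act in splice site choice, fell in both lines: Rbm4 (-1.89 ± 0.12 and -1.84 ± 0.12), Rbm5 (-1.81 ± 0.13 and -1.80 ± 0.14) and Rbm6, a relative of Rbm5 (-1.38 ± 0.15 and -1.03 ± 0.15). Their adjusted p lay between 3.28e-10 for Rbm4 in MB49 cells and 1.52e-05 for Rbm6 in KPC cells. Rbm39, a partner of U2AF that anticancer sulfonamides target for degradation, went from 123, 152 and 149 to 60.8, 53.1 and 84.5 CPM in MB49 cells and from 86.8, 96.2 and 78.8 to 46.4, 58.7 and 45.4 CPM in KPC cells. The log2 fold changes were -1.09 ± 0.16 and -0.80 ± 0.16 (adjusted p = 1.27e-05 and 0.000354). Rbm10, a relative of Rbm5, fell in MB49 cells from 83.3, 78.5 and 80.8 to 36.5, 32.4 and 27.5 CPM (-1.33 ± 0.13, adjusted p = 9.15e-08). In KPC cells the controls at 32.5, 37.0 and 42.1 CPM and the irradiated libraries at 36.8, 34.6 and 40.0 CPM overlapped (-0.00 ± 0.13, adjusted p = 0.995), though with library totals only the gene was called lower there (-0.39, adjusted p = 0.0110). Rbm14, a paraspeckle protein and coactivator, fell in MB49 cells from 92.8, 75.3 and 68.2 to 25.7, 21.9 and 14.3 CPM (-1.94 ± 0.19, adjusted p = 1.45e-07) and did not pass in KPC cells (41.2, 43.4 and 54.1 CPM in controls and 51.2, 45.1 and 60.7 CPM after 8 Gy, 0.18 ± 0.18, adjusted p = 0.418). Rbm12b2 fell by 1.88 ± 0.28 in KPC cells and 1.35 ± 0.27 in MB49 cells (adjusted p = 1.70e-05 and 0.000274). Its near-identical neighbour Rbm12b1 fell in MB49 cells (-1.87 ± 0.37, adjusted p = 0.000255) and had 9 counts in KPC controls and 2 after 8 Gy, and reads of the pair may be shared between them. Rbm12, Rbm18 and Rbm45 also fell in both lines, from -0.66 for Rbm12 in KPC cells to -1.88 for Rbm12 in MB49 cells. Rbm8a, which encodes the Y14 subunit of the exon junction complex, fell by 1.24 ± 0.18 in KPC cells (adjusted p = 9.36e-06). In MB49 cells its call (-0.41 ± 0.18, adjusted p = 0.0454) was lost without control replicate 3 (-0.17, adjusted p = 0.339), irradiated replicate 1 (adjusted p = 0.157) or irradiated replicate 2 (adjusted p = 0.0793).

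The RBM genes that rose in both lines were Rbm3, Rbm7, Rbm17, Rbm43 and Rbm48. Rbm3, an RNA-binding protein induced by cold, was at 173, 199 and 225 CPM in MB49 controls and 309, 329 and 376 CPM after 8 Gy (0.76 ± 0.13, adjusted p = 4.70e-05). In KPC cells the gene went from 121, 114 and 113 to 278, 316 and 257 CPM (1.29 ± 0.13, adjusted p = 1.41e-07), with no overlap of libraries in either line. The antisense gene Rbm3os had at most 0.608 CPM in a library, and whether counting used strand is not stated. Rbm7, part of a complex that feeds RNA to the nuclear exosome, rose by 0.82 ± 0.18 and 1.22 ± 0.18 (adjusted p = 0.000535 and 1.58e-05). Rbm17, a factor that binds U2 proteins and helps choose splice sites, rose by 0.58 ± 0.11 and 0.75 ± 0.11 (adjusted p = 0.000266 and 2.22e-05). Rbm43 rose from 6.36, 6.96 and 7.46 to 12.5, 12.9 and 16.2 CPM in MB49 cells and from 1.25, 1.65 and 1.10 to 4.07, 5.03 and 5.66 CPM in KPC cells (1.00 ± 0.18 and 1.87 ± 0.21, adjusted p = 8.73e-05 and 5.62e-07). Rbm48, a protein of the minor spliceosome, rose in KPC cells by 1.55 ± 0.32 (adjusted p = 0.000418). Its MB49 call (0.70 ± 0.30, adjusted p = 0.0460) was lost without control replicate 1, control replicate 2, irradiated replicate 1 or irradiated replicate 3 (adjusted p = 0.129, 0.138, 0.0544 and 0.277) and by DESeq2 (adjusted p = 0.0755).

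Others passed in 1 line or in none. Rbm38, a p53 target that binds mRNA, was called higher in MB49 cells (0.34 ± 0.14, adjusted p = 0.0338), though the libraries overlapped (93.6, 75 and 99.4 CPM in controls and 127, 119.8 and 93.2 CPM after 8 Gy). The call was lost without control replicate 2, irradiated replicate 1 or irradiated replicate 2 (adjusted p = 0.181, 0.153 and 0.109) and with library totals only (0.04, adjusted p = 0.760). In KPC cells Rbm38 did not pass (0.20 ± 0.14, adjusted p = 0.207). Rbm47, a cofactor of mRNA editing, was hardly seen in MB49 cells, with 15 counts over the controls and 15 after 8 Gy, and rose in KPC cells from 23.9, 30 and 35.6 to 69.4, 62.6 and 69.4 CPM (1.17 ± 0.18, adjusted p = 2.52e-05). The difference of its responses between the lines, KPC minus MB49, did not pass (0.80, adjusted p = 0.322). Rbm22, Rbm27, Rbm33 and Rbm41 were also called higher in KPC cells, by 0.51 for Rbm27 to 1.09 for Rbm41, and with library totals only 3 of these 4 calls were lost, all but that of Rbm33. None of the 4 passed in MB49 cells, where Rbm27 was called lower with library totals only (-0.58, adjusted p = 0.0200) and Rbm41 called higher in the fit of the MB49 libraries alone (0.68, adjusted p = 0.0397). The calls of Rbm27 and Rbm41 were also lost without control replicate 1 (adjusted p = 0.0824 and 0.0832) or irradiated replicate 2 (adjusted p = 0.0506 and 0.117), and that of Rbm27 without control replicate 3 (adjusted p = 0.0545) or irradiated replicate 1 (adjusted p = 0.0509). Rbm4b, close in sequence to Rbm4, fell in MB49 cells (-0.64 ± 0.15, adjusted p = 0.00126) and did not pass in KPC cells (-0.08 ± 0.15, adjusted p = 0.666), though with library totals only it was called lower there (-0.46, adjusted p = 0.0179). Rbm26 and Rbm34 were called lower in MB49 cells (-0.43 ± 0.15 and -0.55 ± 0.21, adjusted p = 0.0175 and 0.0283) but not without control replicate 2 (adjusted p = 0.0841 and 0.0580) or irradiated replicate 2 (adjusted p = 0.0897 and 0.135), nor Rbm34 without control replicate 3 (adjusted p = 0.0928) or irradiated replicate 1 (adjusted p = 0.0917). Neither passed in KPC cells (0.04 ± 0.15 and 0.09 ± 0.20, adjusted p = 0.835 and 0.733). Rbm42 was called lower in KPC cells (-0.47 ± 0.16, adjusted p = 0.0145) but not without control replicate 1, irradiated replicate 1 or irradiated replicate 2 (adjusted p = 0.0528, 0.0567 and 0.0710), and did not pass in MB49 cells (-0.29 ± 0.16, adjusted p = 0.119), where it was called lower under some other settings, library totals only (-0.58, adjusted p = 0.00192) among them.

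Rbm8a2, near-identical to Rbm8a, was called higher in MB49 cells (1.88 ± 0.55, adjusted p = 0.00643) on 13 counts in controls and 38 after 8 Gy, which reads of Rbm8a may share, and had 20 and 11 counts in KPC cells. Rbm20, a regulator of titin splicing in heart, Rbm25 and Rbm3os did not pass in either line, with log2 fold changes from -0.31 for Rbm20 in KPC cells to 0.19 for Rbm25 in MB49 cells. With library totals only Rbm25 was called lower in KPC cells (-0.51). Rbm11, Rbm24, Rbm31y, Rbm46 and Rbm46os had 0 counts in all 12 libraries and Rbm44 had 5 counts, all in irradiated MB49 cells, so that none of these 6 was tested.

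**Figure D5:**
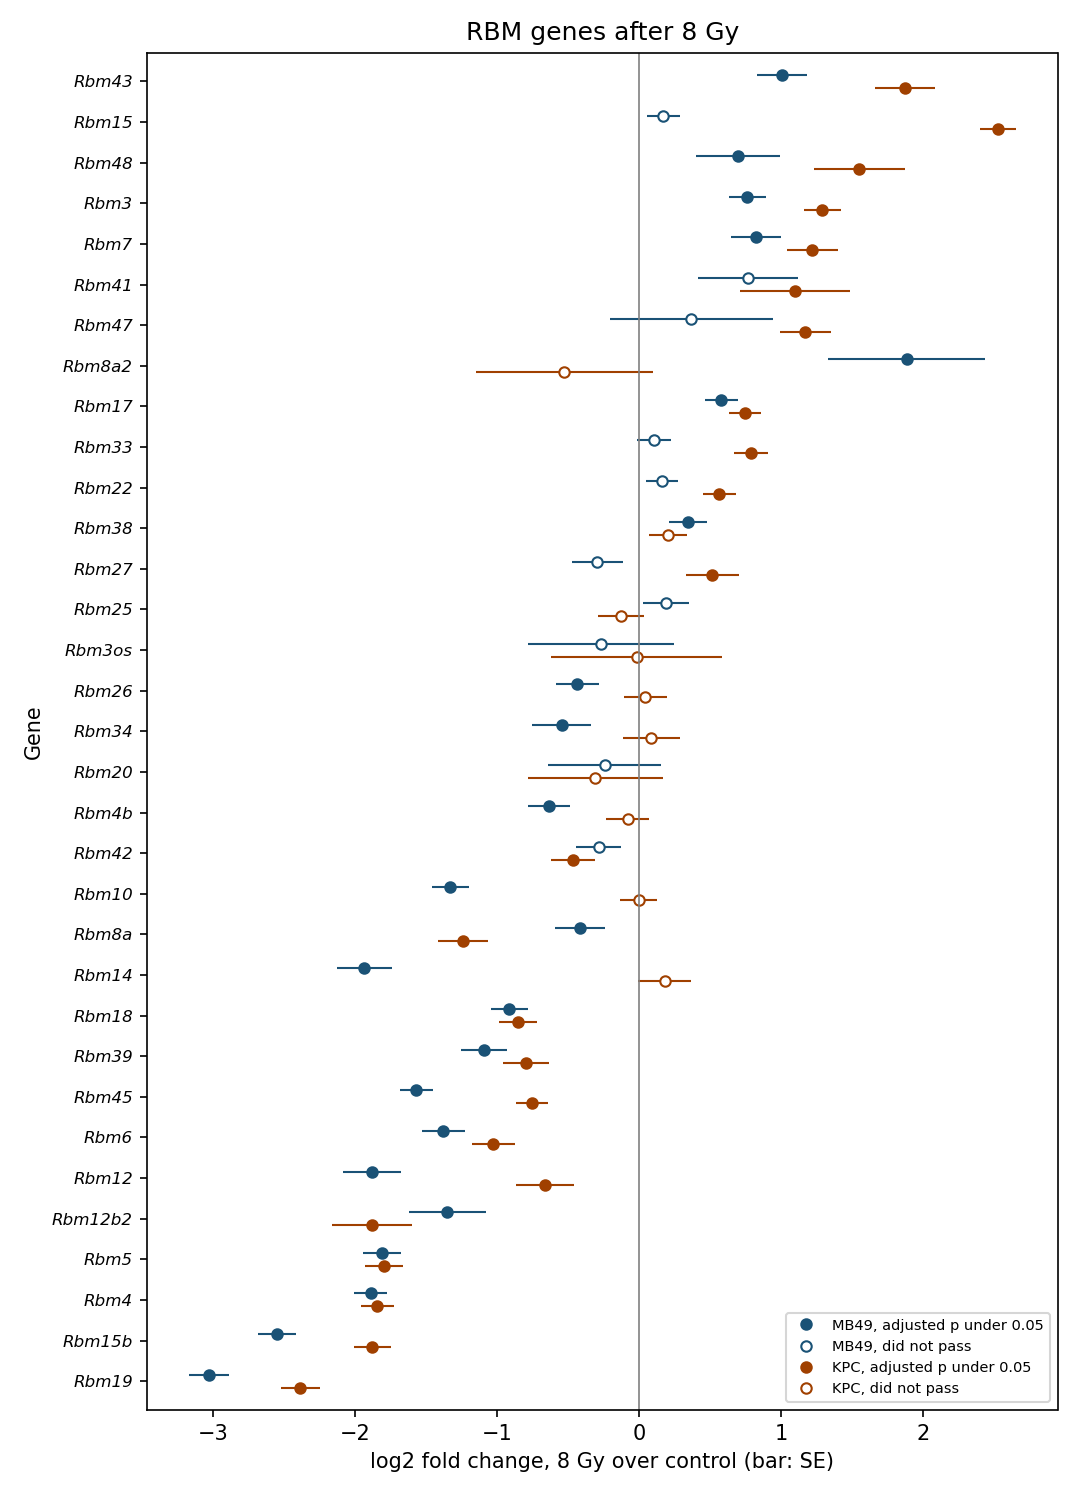
Log2 fold change, 8 Gy over control, of 33 of the 34 tested RBM genes in MB49 and KPC cells (linear axis, bars are SE). Rbm12b1, with 9 and 2 counts in KPC cells, is not drawn. Filled points passed an adjusted p under 0.05 and open points did not. Rbm19 and Rbm15b lie far below 0 in both lines, and Rbm15 lies at 2.53 in KPC cells and 0.17 in MB49 cells.

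Over all 76 tested members, 13 rose, 42 fell and 21 did not pass in MB49 cells, a share of 72.4% called against 66.9% of all genes tested. In KPC cells 20 rose, 37 fell and 19 did not pass, 75% against 63.3%. The share called was thus near that of all genes, and the direction of the calls was further from it: of the member calls 23.6% were rises in MB49 cells and 35.1% in KPC cells, against 52.7% and 49.4% of the calls over all genes. With library totals only the split was 8 rises and 49 falls in MB49 cells and 11 and 44 in KPC cells, 14.0% and 20% of the member calls, against 39.5% and 31.8% over all genes. The median member stood at -0.43 and -0.37, against 0.04 and -0.01 over all genes. In MB49 cells 26 members fell and 3 rose by at least 2-fold, against 17.4% and 20.7% of all genes, and in KPC cells 23 fell and 9 rose, against 17.5% and 17.5%. The 3 control and 3 irradiated libraries did not overlap at 54 members in MB49 cells and 62 in KPC cells, where this held for 67.3% and 69.7% of all genes.

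The lines shared many of these calls. There were 33 members lower in both lines, 43.4% of those tested against 19.9% of all genes, and 10 higher in both, 13.2% against 20.2%. The 10 were Hnrnpa1, Hnrnpa3, Hnrnpul1, Rbm3, Rbm7, Rbm17, Rbm43, Rbm48, Sf3b1 and Sf3b2. Opposite calls were made for 2 members, 2.63% against 6.20%. By at least 2-fold 18 members were lower in both lines (23.7% against 9.43%), and by at least 4-fold 6 members (7.89% against 2.56%): Rbm19, Srsf1, Srsf2, Srsf3, Srsf6 and Srsf7. In levels per length, which can be compared between genes, Srsf1 went from the 10th to the 41st place among members in MB49 cells and from the 24th to the 43rd in KPC cells. The first place was held by Hnrnpk in MB49 controls (182.5 CPM per kilobase), Rbm3 in irradiated MB49 cells (293), U2af2 in KPC controls (263) and Sf3b2 in irradiated KPC cells (288). In MB49 cells short genes were in general higher after 8 Gy, with a median over all genes of 0.64 in the octile of the shortest and -0.28 in that of the longest, and the medians of the members lay below that of all genes in each of the octiles (8 in number). In KPC cells, where length made little difference (medians of all genes from -0.09 to 0.00), the medians of the members lay below in 6 of the 8. The part of gene length in the members' values was not tested further.

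Whether members responded differently in the lines was tested by the difference of the responses, KPC minus MB49, in the same model. A higher response in KPC cells can thus be a larger rise or a smaller fall. Of 76 members 25 had a higher response in KPC cells and 6 a lower, 40.8% against 42.9% of all genes tested, of which 20.9% were higher and 22.0% lower. The median member difference was 0.34, against -0.02 over all genes. By at least 2-fold 5 were higher and 3 lower, against 10.7% and 13.7% of all genes. Among SR genes the fall was smaller in KPC cells for Srsf1 (1.00 ± 0.25, adjusted p = 0.00414), Srsf6 (0.84 ± 0.15, adjusted p = 0.000337), Srsf7 (0.65 ± 0.16, adjusted p = 0.00305) and Srsf3 (0.49 ± 0.17, adjusted p = 0.0275), and larger for Srsf9 (-0.65 ± 0.16, adjusted p = 0.00396). The call for Srsf3 was lost when any of 5 libraries was left out (MB49 irradiated replicate 1 or 2, KPC control replicate 2, KPC irradiated replicate 1 or 2, adjusted p = 0.0548 to 0.0864) and with library totals only (adjusted p = 0.0922). For Srsf2 the difference did not pass (0.46 ± 0.23, adjusted p = 0.111, 95% interval -0.06 to 0.98). No U2AF gene passed.

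Among SF3 genes, Sf3a3 (0.87 ± 0.19, adjusted p = 0.00168), Sf3b2 (0.71 ± 0.18, adjusted p = 0.00447) and Sf3b3 (0.52 ± 0.17, adjusted p = 0.0219) had a higher response in KPC cells and Sf3b5 a lower (-1.02 ± 0.24, adjusted p = 0.00268). The call for Sf3b3 was lost without MB49 control replicate 1 (adjusted p = 0.0614), KPC control replicate 2 (adjusted p = 0.0502) and KPC irradiated replicate 1 or 3 (adjusted p = 0.0525 and 0.0511). Of the hnRNP genes 6 were higher and 2 lower, led by Hnrnpab (1.14 ± 0.18, adjusted p = 7.89e-05), Hnrnpdl (0.87 ± 0.23, adjusted p = 0.00523), Hnrnpu (0.81 ± 0.22, adjusted p = 0.00672) and, in the lower direction, Hnrnph3 (-1.88 ± 0.23, adjusted p = 7.81e-06). Of the RBM genes 12 were higher and 2 lower. The largest differences with at least 1 CPM were those of Rbm15 (2.36 ± 0.17, adjusted p = 2.07e-08), Rbm14 (2.11 ± 0.27, adjusted p = 1.01e-05) and Rbm10 (1.33 ± 0.18, adjusted p = 2.25e-05) and, in the lower direction, Rbm8a (-0.83 ± 0.25, adjusted p = 0.0123), which was lost without KPC control replicate 1 (adjusted p = 0.0713).

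The controls of the lines were compared as the baseline of the responses. This comparison shares its control libraries with the others, so that values are given side by side only. In KPC controls 16 members were higher and 33 lower than in MB49 controls, 64.5% against 67.3% of all genes tested, of which 33.0% were higher and 34.4% lower. By at least 2-fold 4 were higher and 10 lower, against 18.6% and 19.6% of all genes. The libraries did not overlap at 51 members, against 68.6% of all genes. Rbm47 differed most: 15 counts over the MB49 controls against 29.8 ± 5.83 CPM in KPC controls, a difference of 7.23 ± 0.30 (adjusted p = 9.54e-13). Rbm12b1 stood at 5.31 ± 0.489 CPM in MB49 controls and had 9 counts in KPC controls (-5.42 ± 0.50, adjusted p = 4.03e-08). Lower in KPC controls were also Rbm43 (-2.37 ± 0.21, adjusted p = 1.68e-08) and Rbm15 (-1.39 ± 0.12, adjusted p = 2.42e-08), both of which rose in KPC cells after 8 Gy, and Rbm10 (-1.12 ± 0.13, adjusted p = 6.11e-07). Higher were Rbm42 (1.19 ± 0.16, adjusted p = 3.42e-06) and Rbm8a (0.69 ± 0.17, adjusted p = 0.00193).

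Of the SR genes 7 did not pass between the controls, Srsf1 was lower in KPC (-1.12 ± 0.17, adjusted p = 2.03e-05) and Srsf9 and Srsf11 were higher (0.80 ± 0.11 and 0.51 ± 0.11, adjusted p = 8.02e-06 and 0.000775). The median SR difference was -0.05. The 3 U2AF genes were each higher in KPC controls, U2af1 by 0.73 ± 0.14, U2af2 by 0.54 ± 0.12 and U2af1l4 by 0.77 ± 0.19 (adjusted p = 0.000189, 0.000786 and 0.00156). Among SF3 genes Sf3b5 (1.09 ± 0.17), Sf3a2 (0.70 ± 0.14) and Sf3a1 (0.56 ± 0.14) were higher (adjusted p = 2.74e-05, 0.000244 and 0.00153), while Sf3a3 was lower (-0.40 ± 0.14, adjusted p = 0.0158), though not without MB49 control replicate 3 (adjusted p = 0.0896). Sf3b1, Sf3b2 and Sf3b3 did not pass. Of the hnRNP genes 12 were lower and 2 higher: Hnrnph3 (1.81 ± 0.16, adjusted p = 2.58e-08) and Hnrnpl (0.34 ± 0.11, adjusted p = 0.00908). The lower ones included Hnrnpa3 (-0.84 ± 0.23), Hnrnpa2b1 (-0.81 ± 0.16) and Hnrnpu (-0.70 ± 0.15), with adjusted p = 0.00477, 0.000316 and 0.000674. The calls for Hnrnpab, Hnrnpdl and Hnrnpul2 among them were lost without MB49 control replicate 3 (adjusted p = 0.233, 0.0690 and 0.131).

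Genes of the pathway outside the 5 families were followed in 6 lists. The shares called over all genes tested were, as above, 35.3% higher and 31.6% lower in MB49 cells and 31.3% and 32.0% in KPC cells, with medians of 0.04 and -0.01. Of 28 SR-related proteins 19 fell and 1 rose in MB49 cells (median -0.67) and 14 fell and 2 rose in KPC cells (median -0.43). The largest fall among those with at least 1 CPM was that of Tra2b, a splicing activator with arginine and serine tails, from 209 to 50.1 CPM in MB49 cells and from 132 to 30.5 CPM in KPC cells (-2.06 ± 0.15 and -2.11 ± 0.15, adjusted p = 3.05e-09 and 2.97e-09), and Pnn, a speckle protein, rose (1.11 ± 0.17 and 1.82 ± 0.18, adjusted p = 2.14e-05 and 1.01e-07). Of 9 kinases of SR proteins 5 fell and 1 rose in MB49 cells (median -0.74) and 2 fell and 1 rose in KPC cells (median -0.26). Prpf4b fell in MB49 cells (-1.15 ± 0.19) and Clk4 in KPC cells (-1.07 ± 0.19), while Clk3 rose in MB49 cells (0.61 ± 0.11) and Dyrk1b in KPC cells (1.30 ± 0.20). The adjusted p of these 4 were between 2.69e-05 for Dyrk1b and 0.000115 for Clk3.

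Of the 35 tested genes for proteins of the spliceosomal small nuclear particles 14 were higher and 11 lower in MB49 cells (median 0.30), close to the shares of all genes, and 6 were higher and 16 lower in KPC cells (median -0.23). Snrpg, a ring protein of the particles, rose in MB49 cells (1.82 ± 0.25, adjusted p = 1.57e-05), and Snrnp40 of the U5 particle fell (-1.25 ± 0.11, adjusted p = 3.16e-08). In KPC cells Snrpb, another ring protein, fell (-1.57 ± 0.17, adjusted p = 4.45e-07) and Sart1 rose (1.46 ± 0.13, adjusted p = 4.77e-08). Of 30 genes of the Prp19 complex and splicing helicases 4 rose and 15 fell in MB49 cells (median -0.29), led by Bcas2 (0.64 ± 0.12) and Ddx42 (-1.93 ± 0.12), and 11 rose and 10 fell in KPC cells (median -0.01), led by Cdc5l (0.94 ± 0.14) and Ddx46 (-1.32 ± 0.17). Of 32 other splicing regulators 5 rose and 17 fell in MB49 cells (median -0.45) and 7 rose and 13 fell in KPC cells (median -0.09). In MB49 cells the epithelial splicing regulators Esrp1 and Esrp2 were the extremes, at 1.36 and 0.0819 CPM (-3.94 ± 0.54) and at 0.320 and 1.44 CPM (2.19 ± 0.34). In KPC cells they were Nono, a paraspeckle protein (1.48 ± 0.11), and Cirbp, which like Rbm3 is known to be induced by cold (-1.73 ± 0.16). Of 17 genes of the exon junction complex and nonsense-mediated decay 3 rose and 9 fell in MB49 cells (median -0.51) and 2 rose and 5 fell in KPC cells (median -0.19). Eif4a3, the helicase that anchors the exon junction complex, fell in both (-1.44 ± 0.13 and -1.30 ± 0.13, adjusted p = 3.03e-08 and 1.09e-07), while Upf3b rose in MB49 cells (0.69 ± 0.25) and Smg8 in KPC cells (0.79 ± 0.13).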

How the data were processed

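Gene expression was measured by RNA sequencing in 12 libraries, 3 for each of MB49 control, MB49 8 Gy, KPC control and KPC 8 Gy. RNA was taken with TRIzol and libraries were made with a stranded Illumina mRNA kit, per the labels' protocols. The authors deposited 1 table of estimated counts per gene, in which 6.20 to 8.65% of the values of a library were not whole numbers. The submitters' processing notes name fastp, HISAT2, StringTie and the build GRCm39, while the counting tool and its strand setting are not given in the sources used here. Unused were the authors' 4 columns of group means.

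The estimated counts were rounded and genes with low counts were removed with filterByExpr, which kept 14362 of 57180 genes. The 525 rows without a symbol held 0.184 to 0.449% of counts and were kept. Libraries were scaled by TMM (factors 0.829 to 1.18). The test was edgeR's robust quasi-likelihood test (edgeR 4.0.16, R 4.3.3) on all 12 libraries with 1 coefficient per group and 8 residual degrees of freedom (biological coefficient of variation 0.15). It was 2-sided, with Benjamini-Hochberg adjustment over all 14362 genes and a threshold of 0.05. Standard errors are the log2 fold change divided by the square root of F. Every log2 fold change is 8 Gy over control, or KPC over MB49.

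Members and lists were chosen with earlier results of these data known. Genes named by rule were 16 well-known members and, in each family and comparison, up to 3 called genes of at least 1 CPM in each direction with the largest change. For the pathway lists the rule took 1 in each direction per line. The rest were named to account for all members, after their values were seen. In all, 5 pseudogene names were left out, and 1 RBM gene is not reported here. The alternatives were DESeq2 size factors, library totals only, no filter, DESeq2 1.42.0, limma 3.58.1 (voom), a replicate block, the libraries compared alone, and leaving out each library. The procedure was tested on simulated data. Promoters were matched by symbol in RefSeq on GRCm38.p6.

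Near-identical genes (Rbm8a and Rbm8a2, Rbm12b1 and Rbm12b2, Rbm4 and Rbm4b, Hnrnph1 and Hnrnph2) may share reads, so that their values are uncertain. The related but less similar Hnrnpa1 and Hnrnpa3 may do so to a lesser degree, and sharing of reads was not tested. The length used for levels per kilobase is the one in the authors' table.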

Additional observations from a re-analysis of the deposited data

Results flagged for a closer look

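The response to 8 Gy differed between the lines at 31 members by the test of the difference itself (KPC minus MB49, log2 scale, edgeR's quasi-likelihood test, adjusted p under 0.05). That was 40.8% of the 76 members tested, near the 42.9% of all genes tested. Among SR genes the differences were 1.00 for Srsf1, 0.84 for Srsf6, 0.65 for Srsf7, 0.49 for Srsf3 and -0.65 for Srsf9. Among SF3 genes they were 0.87 for Sf3a3, 0.71 for Sf3b2, 0.52 for Sf3b3 and -1.02 for Sf3b5. Among hnRNP genes they were 1.14 for Hnrnpab, 0.87 for Hnrnpdl, 0.81 for Hnrnpu, 0.62 for Hnrnpl, 0.51 for Hnrnpf, 0.48 for Hnrnpk, -0.60 for Hnrnph1 and -1.88 for Hnrnph3.

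A higher response in KPC cells can be a larger rise or a smaller fall, as at Rbm19 (-2.39 in KPC cells and -3.03 in MB49 cells). Among RBM genes the response was higher in KPC cells by 2.36 for Rbm15, 2.11 for Rbm14, 1.33 for Rbm10, 1.22 for Rbm12, 0.87 for Rbm43, 0.82 for Rbm45, 0.81 for Rbm27, 0.68 for Rbm33, 0.67 for Rbm15b, 0.64 for Rbm19, 0.55 for Rbm4b and 0.53 for Rbm3. It was lower, by -0.83 for Rbm8a and -2.41 for Rbm8a2, the latter on 13 to 38 counts per group in MB49 cells and 11 to 20 in KPC cells. Of the 31 calls 22 were kept under each of 18 alternatives. Fewer kept those for Rbm4b (6 of 18), Rbm8a2 (9), Hnrnph1 (10), Srsf3 and Rbm3 (12 each), Sf3b3 (14), Rbm27 (16), and Hnrnpk and Rbm8a (17 each). No explanation of these differences was tested.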

How the results depend on the processing

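With libraries scaled by their totals only, the median of all genes tested moved from 0.04 to -0.23 in MB49 cells and from -0.01 to -0.39 in KPC cells. Members called higher then numbered 8 in MB49 cells (13 with TMM) and 11 in KPC cells (20 with TMM), and rises made up 14.0% and 20% of the member calls, from 23.6% and 35.1%. Hnrnpc in KPC cells, at 0.01 and not called with TMM, stood at -0.36 (adjusted p = 0.0175). The cause was not tested beyond the shift of the median.

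Leaving out each library in turn gave 11 to 14 members higher and 37 to 44 lower in MB49 cells, and 15 to 20 higher and 33 to 37 lower in KPC cells. The difference of the responses gave 21 to 33 higher and 3 to 9 lower (25 and 6 with all libraries), and the comparison of controls 13 to 17 higher and 29 to 31 lower. Called the same way under each alternative were 44 of 55 members in MB49 cells, 44 of 57 in KPC cells, 22 of 31 for the difference and 37 of 49 between controls. Over all tested members and the alternatives of each comparison, 4326 values could be set beside their main value: 4062 stayed on the same side of the threshold, 179 no longer passed, 82 newly passed and 3 passed with the opposite sign (Srsf4 and Hnrnpc in KPC cells with library totals only, Hnrnpa0 in MB49 cells without control replicate 3), none of which passed at first.

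With the replicate block, 52 of 55, 56 of 57, 29 of 31 and 45 of 49 member calls were kept. No pairing by replicate number was seen: 3 of 18 same-numbered pairs correlated above 0.1 (r from -0.423 to 0.389, against -0.425 to 0.447 in the 36 other pairs). These r are of deviations from means of 3 libraries, which sum to 0 in each group, so that they cannot exclude a pairing. At 3 libraries per group, and with few counts at Rbm8a2, Rbm12b1, Rbm20 and Rbm3os, small differences were not detectable.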
